A study of Mus musculus with 16 samples.

Results

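The step from day 6 (D6) to day 8 (D8) of a chemical reprogramming experiment was described from CpG methylation measured by reduced representation bisulfite sequencing (RRBS). The cells were mouse embryonic fibroblasts (MEFs) at passages 1-3 from 129XOG2 E13.5 embryos. OG2 mice carry a fluorescent reporter of the pluripotency gene Oct4. All D8 and D6 cells had been in reprogramming medium since the day after seeding, and per the labels the medium was changed daily from day 4 to day 8. The labels call both groups reprogramming intermediates and name no genotype or agent in which they differ, so D8 and D6 differ in time in the medium. Each group held 2 libraries, and the whole series held 16 libraries in 8 groups of 2. The members were the CpG sites, counted by strand, with at least 10 reads in each of the 4 D8 and D6 libraries on the 19 autosomes. This rule kept 1198955 sites, against 3179941 sites listed in any of the 16 libraries. Tiles of 1 kb with at least 3 of these sites numbered 113966, and a tile held a median of 7 sites. The libraries are bulk DNA from a whole culture, so a level of 50% can stand for methylation in some of the cells or on some of the alleles. The labelled cell type could not be checked against marker genes with these data.

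In mammals, DNA methylation at CpG sites is written by Dnmt3a and Dnmt3b and copied to the new strand after replication by Dnmt1, which Uhrf1 brings to the DNA. Methylation can be lost passively, when copying lags behind cell division, or actively, when Tet enzymes oxidise methylcytosine. Most CpGs of a somatic genome are highly methylated, while CpG-dense stretches such as CpG islands are mostly unmethylated. RRBS cuts DNA with MspI, so that CpG-dense stretches are over-represented among the sites read.

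The sum of coverage over the listed sites was 59115126 and 62173437 in the D8 libraries. It was 39011213 and 83246575 in the D6 libraries, the last 2 being unequal in depth. A read counts once at each CpG site it covers, so these sums are not numbers of reads. The read numbers given for tiles are sums over sites too. The range of this sum over the series was 39011213 to 107834007. At the member sites the median coverage was 30 and 31 reads in the D8 libraries and 21 and 39 reads in the D6 libraries. The labels do not say that the replicates came from separate cultures, so the p-values cover no more than the spread between the libraries at hand, which may be technical. The counting SDs below cover counting error only, since reads without molecular identifiers are not independent molecules.

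The mean methylation level was lower at D8 than at D6 in both libraries. It was 33.8% and 32.6% in the D8 libraries and 41.7% and 42.4% in the D6 libraries. The D8 and D6 libraries did not overlap, and the gap between the days was larger than the gap between replicates. The group means were 33.2% ± 0.868 at D8 and 42.0% ± 0.484 at D6 (SD, n = 2 each). The difference was -8.80 points with a standard error of 0.702, and the exact two-sided permutation test gave p = 0.333. That is the smallest p that 2 libraries against 2 allow, so no comparison of day means below could pass a threshold of 0.05. Relative to the D6 mean, 20.9% of the methylation was lost by D8, and the 4 ways to pair a D8 with a D6 library gave 18.8% to 23.0%.

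Fewer sites were highly methylated at D8, and more lay in the middle of the scale. Sites above 80% made up 5.72% and 4.93% of the sites in the D8 libraries and 18.6% and 18.7% in the D6 libraries. The class was small in both D8 libraries and did not overlap with D6. Sites from 20% to 80% made up 55.8% and 55.1% in the D8 libraries and 42.7% and 43.1% in the D6 libraries. The middle class held most of the sites at D8 and fewer than the other classes together at D6. Its difference was 12.5 points (SE 0.443; 7.95 points with limits of 10% and 90%), and that of the sites above 80% was -13.3 points (SE 0.398), each with an exact permutation p of 0.333. Sites under 20% made up 38.4% and 40.01% in the D8 libraries and 38.7% and 38.2% in the D6 libraries. These ranges overlapped, with an exact permutation p of 0.667. At the 857278 sites with 10 reads in all 16 libraries they did not overlap, with 39.2% and 40.7% in the D8 libraries and 38.1% and 37.8% in the D6 libraries, so the order depended on the sites used.

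The D6 libraries had a second peak of sites at high levels that the D8 libraries lacked. At D6, sites at 80% to 90% made up 10.3% and 11.2% of the sites, against 4.91% and 4.83% at 40% to 50%. At D8 the order was the other way, with 3.91% and 3.45% at 80% to 90% and 9.75% in each library at 40% to 50%. Sites from 40% to 60% made up 20.6% ± 0.168 at D8 and 12.1% ± 0.489 at D6. Fully methylated sites were also fewer at D8. Sites at 100% made up 0.720% and 0.552% in the D8 libraries and 3.71% and 2.01% in the D6 libraries. The unequal values of the D6 libraries at 100% stand beside their unequal depths of 21 and 39 reads, and the part of depth in that difference was not tested.

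**Figure D1:**
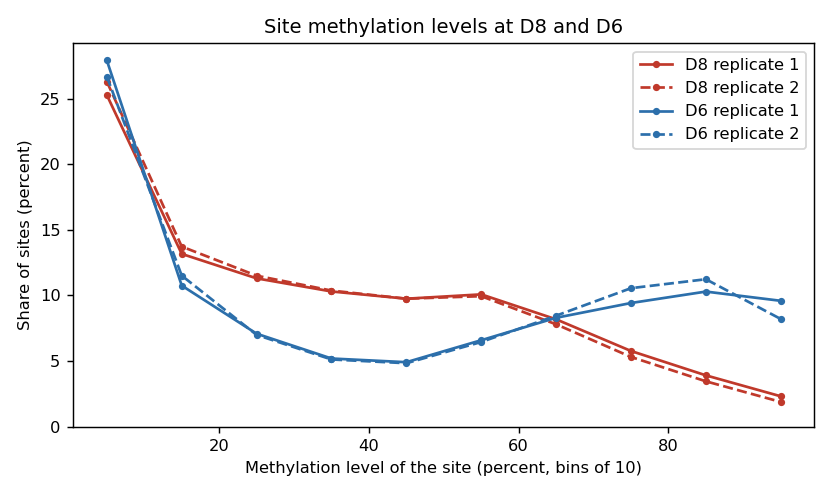
Share of the 1198955 sites (y, percent) in bins of 10 percentage points of methylation level (x), for each D8 library (red) and each D6 library (blue). Both D6 lines turn up again above 50% and reach 10.3% and 11.2% at 80% to 90%, where the D8 lines are at 3.91% and 3.45%.

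Sorting the sites by their level at D4, which neither D8 nor D6 values enter, set the loss apart by starting level. The 370591 sites at 80% or more at D4 averaged 91.8% there. They averaged 58.6% and 57.7% in the D8 libraries and 78.5% and 78.9% in the D6 libraries. The D8 libraries lay about 20 points below those of D6, with a difference of -20.5 points (SE 0.487), and 26.1% of the D6 level was lost. Of these sites 13.9% were still above 80% at D8, against 50.2% at D6, and 2.18% were under 20% at D8, against 0.0886% at D6. The median site of this class was at 58.1% at D8 and 80.4% at D6, and the 10th percentile was 33.3% at D8 and 60% at D6. The 126206 sites at 60% to 80% at D4 averaged 42.1% ± 1.08 at D8 and 60.6% ± 0.555 at D6, a loss of 30.6%. The 77324 sites at 40% to 60% averaged 31.98% ± 1.42 at D8 and 41.1% ± 0.909 at D6, a loss of 22.3%. The 117924 sites at 20% to 40% averaged 22.5% and 20.6% in the D8 libraries and 20.6% and 21.7% in the D6 libraries, which overlapped. The 398786 sites under 20% were slightly higher at D8, with 10.4% and 9.46% in the D8 libraries and 8.04% and 8.61% in the D6 libraries.

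Within the middle of the scale the sites were also closer together at D8. The SD over the sites at 20% to 80% was 16.7 and 16.6 points in the D8 libraries and 18.7 points in each D6 library. The difference was -2.03 points (SE 0.0825, exact permutation p = 0.333), but it was -0.652 points with limits of 30% and 70% and -4.31 points with limits of 10% and 90%. Counting reads alone gives an SD of 9.67 and 9.32 points in the D8 libraries and 10.9 and 8.47 points in the D6 libraries. Beyond counting, the spread was 13.7 ± 0.0373 points at D8 and 15.9 ± 0.988 points at D6 (SD, n = 2 each). The D6 libraries gave 15.2 and 16.6 points, beside their unequal depths of 21 and 39 reads. The sites were chosen by their own level in the same library, so this subtraction does not fully separate counting from other spread. The centre of the class was lower at D8 too, with a median of 45.3% ± 0.461 at D8 and 56.3% ± 1.12 at D6. Over all sites the SD was 26.4 ± 0.395 points at D8 and 33.8 ± 0.400 points at D6.

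Replicates were less alike at D8 than at D6. Over the member sites the Pearson r between libraries was 0.764 for the D8 replicates and 0.888 for the D6 replicates. With each site thinned to 10 reads, which removes the differences in depth, r was 0.671 at D8 and 0.831 at D6. These correlations are across sites within a pair of libraries, and the sites are not independent replicates. A D8 library correlated with the D6 libraries at r = 0.773 to 0.802, so by r alone the D8 replicates were no closer to each other. In level they were closer, since r leaves out the difference in mean. The median absolute difference over tiles was 6.61 points between the D8 replicates and 13.4 points between the days. The narrower range of levels at D8 bears on r, so the spread between replicates was also taken in points. Beyond counting it was 10.2 points at D8 and 8.46 points at D6.

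Neighbouring sites were compared across replicates, which share no reads. Sites 2 to 10 bases apart had r = 0.752 at D8 and 0.830 at D6. Sites over 100 and up to 200 bases apart had r = 0.521 at D8 and 0.605 at D6, and sites over 1000 and up to 5000 bases apart had 0.194 at D8 and 0.214 at D6. The values were lower at D8 in each of the 8 distance classes. For the same site across replicates r was 0.764 at D8 and 0.888 at D6, which limits the values for neighbours. The part of this lower replicate agreement in the lower neighbour values at D8 was not tested. The change from D6 to D8 of a site and of its neighbour, taken from separate library pairs, had r = 0.238 at 2 to 10 bases, 0.192 at over 100 and up to 200 bases and 0.0486 at over 1000 and up to 5000 bases. Within a tile the sites differed from each other, beyond counting, by an SD of 15.7 and 15.6 points in the D8 libraries. It was 20.3 and 20.1 points in the D6 libraries. The 2 strands of a CpG count as separate sites here, and the part of gaps between strands in this SD was not tested. Between tiles the SD of the levels was 18.9 and 18.3 points in the D8 libraries and 23.2 and 22.8 points in the D6 libraries. Levels were thus closer together at D8 both within and between tiles.

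**Figure D2:**
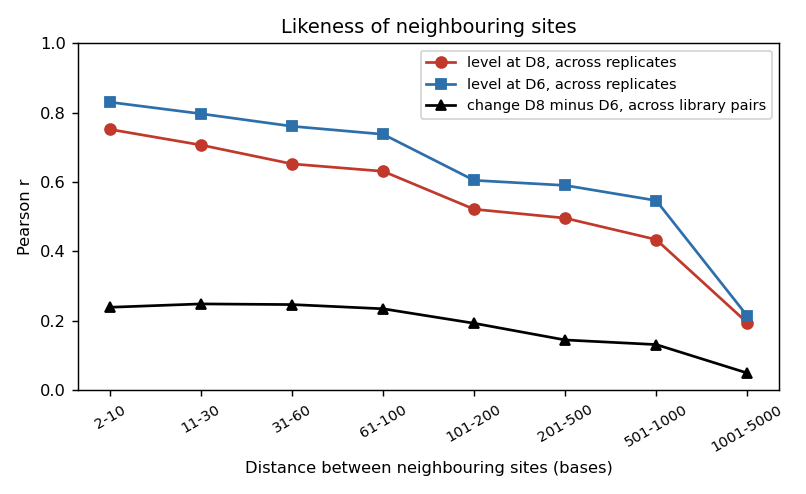
Pearson r (y) between the levels of neighbouring sites by their distance in bases (x), with one site read in replicate 1 and the other in replicate 2, at D8 (red) and D6 (blue), and for the change D8 minus D6 (black). The D8 values lie below the D6 values in all 8 distance classes. The change is correlated at 0.238 at the shortest distance and 0.0486 at the longest. For the same site across replicates, not drawn, r was 0.764 at D8 and 0.888 at D6.

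The strands of a CpG were often read at different levels, in D8 and D6 alike. Over 372913 CpGs with both strands among the members, r between the strands was 0.499 in each D8 library, and 0.535 and 0.554 in the D6 libraries. At 18.3% of the 337349 CpGs that could be read on both strands at D4, the strands lay 50 points or more apart there, with a median of 9.42% on the lower strand and 90% on the higher. The cause of these gaps was not tested. CpGs whose strands lay within 20 points at D4 averaged 31.03% at D8 and 40.3% at D6, a loss of 23.1%. CpGs with strands 50 points or more apart averaged 32.4% at D8 and 42.4% at D6, a loss of 23.6%.

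The loss was spread over most tiles. The median tile differed by -12.9 points, 84.3% of the tiles had a lower mean at D8, and 59.7% were lower by 10 points or more. Tiles lower by 25 points or more were 12.2% of all, and 68 tiles were lower by 50 points or more. In 74040 tiles (65.0%) both D8 libraries lay below both D6 libraries, and in 6196 tiles (5.44%) both lay above. The median absolute difference was 13.4 points between the days, 6.61 points between the D8 replicates and 5.35 points between the D6 replicates. Over tiles, r was 0.386 between the changes of the library pairs of replicate 1 and of replicate 2. Within classes of tiles by their level at D4 it was lower, from 0.0571 under 20% to 0.233 at 80% or more.

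**Figure D3:**
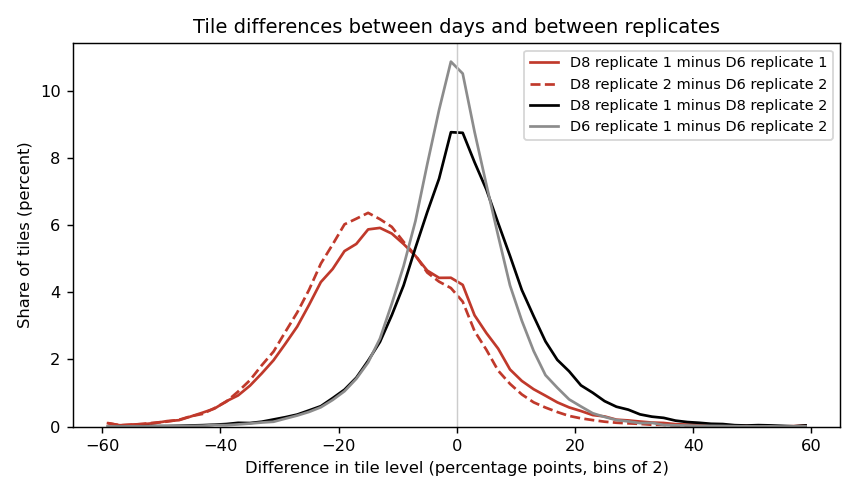
Share of the 113966 tiles (y, percent) by difference in level (x, percentage points, bins of 2, with larger differences in the end bins), for D8 minus D6 (red, 1 line per replicate number) and between the replicates of D8 (black) and of D6 (grey). The red lines peak below -10 points, while the lines of the replicates are centred near 0, the D8 line being the wider.

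Tests of single tiles depended on the fit. With the 4 D8 and D6 libraries alone, edgeR's quasi-likelihood test called 0 of 113966 tiles lower (0%) and 0 higher (0%) at a Benjamini-Hochberg adjusted p under 0.05 and a difference of at least 10 points. The smallest adjusted p was 0.0773. At an unadjusted p under 0.05 and 10 points, 41028 tiles (36.0%) were lower and 1358 (1.19%) higher. A quasi-binomial model of the same 4 libraries called 24524 tiles lower (21.5%) and 726 higher (0.637%). Without D6 replicate 1 it called 8 lower and without D6 replicate 2 it called 6 lower, against 11750 without D8 replicate 1 and 8426 without D8 replicate 2. Over sites, the spread between replicates beyond counting was 10.2 points at D8 and 8.46 points at D6. An estimate of spread taken from all days may thus be too small for D8. Such an estimate is used by edgeR with all 16 libraries in 1 fit. That fit called 36399 of 92383 tiles lower (39.4%) and 373 higher (0.404%). With 1 of the 4 libraries left out it called 26326 lower without D8 replicate 1, 23129 without D8 replicate 2, 22014 without D6 replicate 1 and 19195 without D6 replicate 2. Of the 23286 tiles that the quasi-binomial model called lower among those tested in both, 21473 (92.2%) were among the 36399 of the 16-library fit, of which they were 59.0%. In each of the fits that made calls, lower tiles outnumbered higher ones.

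Tiles that were unmethylated at D4 stood apart from the rest. In the 15656 tiles under 20% at D4, the level was 10.7% and 9.85% in the D8 libraries and 8.30% and 8.82% in the D6 libraries. The D8 libraries were slightly above the D6 libraries, by 1.71 points (SE 0.497, exact permutation p = 0.333), and 24.6% of these tiles had both D8 libraries above both D6 libraries, against 5.44% of all tiles. In 13.1% of them both D8 libraries lay below both D6 libraries, against 65.0% of all tiles. Beside this, the 9132 tiles under 15% in all 4 libraries had a level of 6.02% ± 0.0939 at D8 and 5.45% ± 0.365 at D6, and the part of bisulfite conversion in these levels was not tested. Tiles from 20% to 40% at D4 had 20.9% ± 1.22 at D8 and 24.1% ± 0.559 at D6, a loss of 13.3%, which was 21.1% with 20 reads per site and 20.3% with the level of low tiles subtracted. From 40% to 60% the loss was 27.8%, from 60% to 80% it was 28.4%, and at 80% or more it was 24.0%. The last class had 57.5% and 56.5% in the D8 libraries and 74.8% and 75.3% in the D6 libraries, and 83.8% of its 18659 tiles were lower without overlap. In points the difference was -11.8, -17.0 and -18.0 in these 3 classes. Of the tiles in the 16-library fit, 57.8% of those at 80% or more at D4 were called lower, against 39.4% of all, and 0.838% of those under 20%. A call needs a fall of at least 10 points. Tiles under 20% at D4 averaged under 10% at D6, so few of them could be called lower whatever happened.

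The share lost was smaller in tiles with more listed CpGs. CpGs per tile are those listed in any of the 16 libraries. CpGs of the sequence that RRBS did not read are left out. A dense tile is thus one with many listed CpGs, which may differ from its CpG density in the genome. Tiles with 1 to 4 CpGs had 35.3% ± 0.929 at D8 and 49.3% ± 0.391 at D6, a loss of 28.4%. Tiles with 5 to 9 CpGs lost 25.7% and those with 10 to 19 CpGs lost 21.4%. Tiles with 20 or more CpGs, the densest class, had 22.9% and 22.03% in the D8 libraries and 23.8% and 24.2% in the D6 libraries, a loss of 6.42%. With 20 reads per site this loss was 10.3%, and with the level of low tiles subtracted it was 11.4%. Their libraries did not overlap, but the difference of -1.54 points (SE 0.469) was small beside the -14.0 points of the tiles with 1 to 4 CpGs. Many dense tiles were unmethylated from the start, so density was also read within the classes of D4 level.

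Among the tiles at 80% or more at D4, those with more listed CpGs kept more of their methylation. Those with 1 to 4 CpGs had 53.1% ± 1.30 at D8 and 73.8% ± 0.610 at D6, a loss of 28.0%. Those with 5 to 9 CpGs lost 24.8% and those with 10 to 19 CpGs 21.6%. Those with 20 or more CpGs, 1222 tiles, had 63.4% and 62.9% in the D8 libraries and 78.1% and 78.6% in the D6 libraries, a loss of 19.4%. The losses of the library pairs were 26.3% to 29.7% in the sparsest and 18.9% to 19.9% in the densest of these 4 sets and did not overlap. Among the tiles at 60% to 80% at D4, the loss was 29.5% with 1 to 4 CpGs and 24.7% with 20 or more. Among the 6556 tiles with 20 or more CpGs and under 20% at D4, the level was 10.6% and 10.1% in the D8 libraries and 7.91% and 8.28% in the D6 libraries, so that D8 lay above D6 by 2.25 points (SE 0.314).

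**Figure D4:**
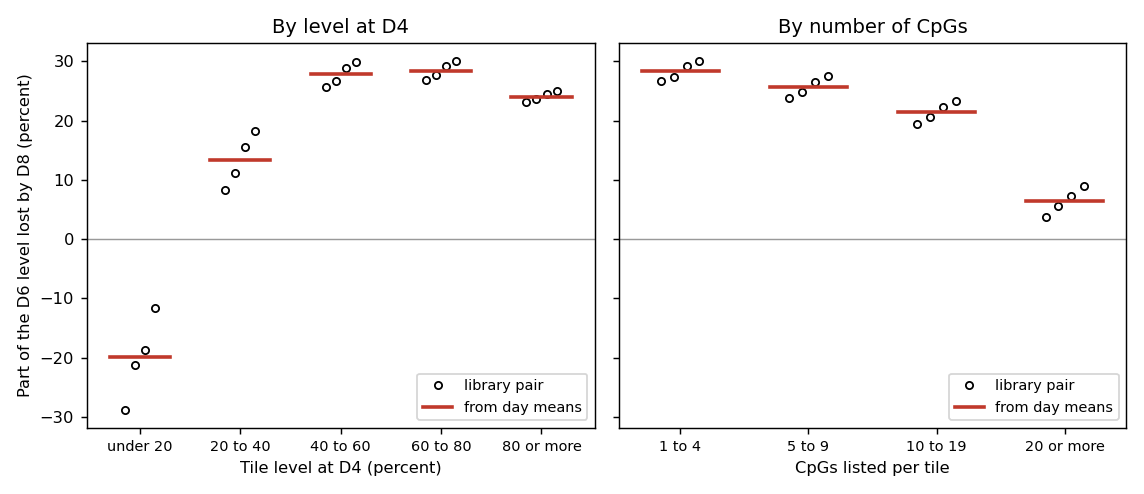
Part of the D6 level lost by D8 (y, percent) for tiles grouped by their level at D4 (left) and by their number of listed CpGs (right). Circles are the 4 pairs of a D8 with a D6 library, and red bars the value from the means of each day; values below 0 mean a higher level at D8. The tiles under 20% at D4 lie below 0 in all 4 pairs, and the loss is 28.4% with 1 to 4 CpGs and 6.42% with 20 or more.

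Tiles at the high and the low end in one D8 library were read in the other. Of 15876 tiles at 80% or more at D4 with reads in all 16 libraries, 701 (4.42%) were still at 80% or more in D8 replicate 1. In D8 replicate 2 these tiles averaged 72.5%, against 56.1% for all 15876. They had been at 85.4% at D6, against 75.3%, and were at 66.2% at D10, against 46.0%. At D12 they averaged 46.0%, against 28.5%. At the other end, 1720 tiles (10.8%) were under 40% in D8 replicate 1, and these averaged 43.8% in D8 replicate 2, 69.2% at D6 and 29.8% at D10. Sorting by D8 replicate 2 and reading in D8 replicate 1 gave 76.2% for 523 tiles that had stayed at 80% or more and 44.3% for 1788 tiles under 40%. The tiles that stayed high thus stood above the class in the library not used to sort them, though less far than in the one that was. In iPSCs both ends were close to the class, with 78.7% and 74.9% when sorted by D8 replicate 1, against 75.5%.

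The loss was seen on each chromosome. By autosome it ranged from 23.8% on chromosome 13 to 25.9% on chromosome 17, computed over tiles. Outside the member sites, 25823 sites on X had 39.7% and 39.4% in the D8 libraries and 49.9% and 50.2% in the D6 libraries, a loss of 20.99%. On Y, 1801 sites lost 23.1%. The X and Y values are means over sites, by which the autosomes lost 20.9%, so they do not compare with the values over tiles. In windows of 1 Mb with at least 20 tiles at 20% or more at D4, the loss ranged from 12.8% to 37.2% with a median of 26.2%. In all 1797 windows the level was lower at D8 in the library pairs of both replicate numbers, and r between those pairs over windows was 0.440. The window with the smallest loss, at chromosome 1 from 63000001 to 64000000 on GRCm39, had 46.4% and 45.4% in the D8 libraries and 52.4% and 53.0% in the D6 libraries over 25 tiles. The window with the largest, at chromosome 9 from 37000001 to 38000000, had 33.9% and 36.7% in the D8 libraries and 58.1% and 54.3% in the D6 libraries over 22 tiles.

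Single tiles with the largest differences were taken from the 16-library edgeR fit, which called 39.4% of 92383 tiles lower and 0.404% higher. Among the called tiles, 30039 lower and 282 higher ones had at least 100 reads in each of the 4 libraries and no overlap. The named tiles were chosen from these as the extremes of this contrast, so their D8 and D6 values are a description. Their levels were taken at the sites with 10 reads in all 16 libraries, and at the member sites the 5 largest decreases were -49.3 to -53.9 points. Positions are on GRCm39, and which gene lies there was not analysed here. The tile at chromosome 2 from 163348001 to 163349000 was at 17.6% and 17.1% in the D8 libraries and 71.8% and 80.7% in the D6 libraries, a difference of -58.9 points (adjusted p = 0.0171 by edgeR), and of -49.3 points at the member sites. Its call was lost without D6 replicate 2 (adjusted p = 0.0885 by edgeR), without D8 replicate 1 (0.0587) and without D8 replicate 2 (0.0635). The tile had been at 90.5% ± 1.62 at D4, was at 9.63% ± 5.02 at D10 and was at 79.1% ± 16.7 in iPSCs (SD, n = 2 each). The tile at chromosome 17 from 29538001 to 29539000 was at 14.9% and 15.9% in the D8 libraries and 73.0% and 69.6% in the D6 libraries, with an adjusted p of 0.00293 by edgeR. It stood at 86.6% ± 7.80 at D4, 22.3% ± 1.36 at D10 and 2.97% ± 1.57 at D12.

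Of the other 3 of the 5 largest decreases, one at chromosome 11 from 96922001 to 96923000 was at 23.8% and 15.2% in the D8 libraries and 78.2% and 72.1% in the D6 libraries. A second tile of chromosome 11, from 70119001 to 70120000, was at 12.9% and 30.9% in the D8 libraries and 85.8% and 69.1% in the D6 libraries. Another, at chromosome 4 from 131967001 to 131968000, was at 52.9% and 32.8% in the D8 libraries and 96.2% and 97.4% in the D6 libraries, and was the only one of the 5 still above 30% in both D8 libraries. Of the 5 decreases, 4 stayed called whichever of the 4 libraries was left out, and 5 were called by the quasi-binomial model.

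The 5 largest increases varied more between replicates. The tile at chromosome 3 from 95662001 to 95663000 was at 14.7% and 72.5% in the D8 libraries and 0.840% and 0% in the D6 libraries, so that D8 replicate 2 gave most of the difference of 43.1 points. On chromosome 13, the tile from 91609001 to 91610000 was at 12.7% and 50.6% in the D8 libraries and 0% and 0.200% in the D6 libraries, and was at 1.47% and 0% at D10. On chromosome 15, the tile from 102995001 to 102996000 was at 68.3% and 56.7% in the D8 libraries and 12.5% and 36.7% in the D6 libraries, a difference of 37.9 points that was 26.1 points at the member sites. It stood at 40.5% ± 5.95 at D4 and 36.1% ± 14.3 at D10, between its mean levels of 62.5% at D8 and 24.6% at D6. On chromosome 9, the tile from 103628001 to 103629000 was at 55.4% and 32.1% in the D8 libraries and 10.96% and 11.01% in the D6 libraries. On chromosome 7, the tile from 65020001 to 65021000 was at 54.6% and 40% in the D8 libraries and 23.1% and 6.43% in the D6 libraries. Each of these 5 lost its call without at least 1 of the 4 libraries, and 2 were called by the quasi-binomial model.

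Tiles without a difference were rare among highly methylated ones. Of 14164 tiles at 80% or more at D4 with at least 100 reads in each of the 4 libraries, 792 differed by 5 points or less and 193 were higher at D8. The tile with the smallest difference, at chromosome 4 from 31528001 to 31529000, was at 81.8% and 79.8% in the D8 libraries and 78.9% and 82.8% in the D6 libraries, and had been at 90.7% at D4. It lies in one of the 5 windows of 1 Mb with the smallest losses, at 15.5%. The tile at chromosome 12 from 98944001 to 98945000 was at 81.0% and 76.0% in the D8 libraries and 80.9% and 76.2% in the D6 libraries. In the other 3 the replicates of a day differed by more: the tile at chromosome 16 from 8945001 to 8946000 was at 77.7% and 46.4% in the D8 libraries and 65.7% and 58.4% in the D6 libraries. The tiles at chromosome 6 from 79261001 to 79262000 and at chromosome 8 from 43783001 to 43784000 had 53.6% to 79.5% in the D8 libraries and 47.7% to 76.8% in the D6 libraries.

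The called tiles were followed over the days that the contrast did not use. The 36399 lower tiles averaged 69.9% ± 0.162 at D4 and, after the step, 29.9% ± 0.279 at D10 and 18.0% ± 0.0116 at D12 (SD, n = 2 each). In iPSCs they averaged 66.5% ± 0.148. Over all 92383 tiles the means were 56.4% at D4, 26.0% at D10 and 17.7% at D12, and iPSCs had 55.1%. A lower call needs a fall of at least 10 points, so the choice itself favours tiles with a high start. Their higher level at D4 is therefore no separate result. By D12 the lower tiles were about level with all tiles. The 373 higher tiles averaged 17.3% ± 0.419 at D4, 11.4% ± 0.380 at D10 and 15.6% ± 0.111 at D12, all of them between the 25.0% of D8 and the 7.53% of D6. These tiles were picked for a D8 level above D6. Levels in between on other days can follow from that choice alone, so they show no passing rise. The higher tiles held a median of 13 listed CpGs, against 6 in all tiles.

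Set beside the other steps at the sites common to all 16 libraries, the step from D6 to D8 had the largest loss in points. At the 857278 autosomal sites with at least 10 reads in all 16 libraries, the mean level was 50.9% in D0 cells, and then 48.4% by D2, 50.2% by D4, 42.9% by D6, 32.7% by D8, 24.8% by D10 and finally 17.7% by D12. The change was -7.29 points from D4 to D6, -10.2 points from D6 to D8, -7.94 points from D8 to D10 and -7.04 points from D10 to D12. From D6 to D8 it was -8.80 points at the member sites. The steps were not ranked in points at the sites of each step alone. As a share of the level at its start, the loss was 23.7% ± 1.93 from D6 to D8 and 24.3% ± 1.97 from D8 to D10. It was 28.4% ± 0.850 from D10 to D12, against 14.5% ± 0.819 from D4 to D6. Each ± value is an SD carried over from the SDs between the libraries of both days. The library pairs gave 21.95% to 25.5% from D6 to D8, 22.4% to 26.1% from D8 to D10 and 27.7% to 29.2% from D10 to D12, so that the last step lay above the other two at these sites. Neighbouring steps share a day's libraries, and their difference was not tested. At the sites of each step alone these shares were 14.1%, 20.9%, 24.3% and 22.2% in order of time, so the order of the last 3 depends on the sites used.

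The middle class of sites peaked at D8. At the common sites, sites at 20% to 80% were 42.9% and 43.2% in the D6 libraries, 55.7% and 54.9% in the D8 libraries and 44.9% and 45.7% in the D10 libraries. The share at D6 was 12.9 points above that at D4, the share at D8 12.3 points above that at D6, and the share at D10 9.98 points below that at D8. Sites under 20% were 38.1% and 37.8% in the D6 libraries, 39.2% and 40.7% in the D8 libraries and 52.4% and 51.6% in the D10 libraries. The share of low sites was slightly above D6 in both D8 libraries and larger again at D10.

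**Figure D5:**
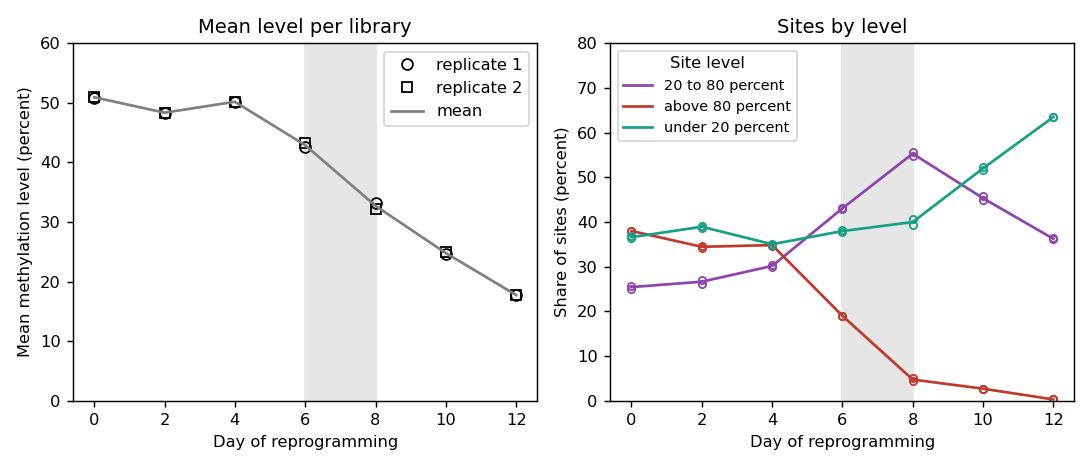
Mean methylation level per library (left, percent) and shares of sites by level (right, percent of the 857278 common sites) over the days of reprogramming (x), with the step from D6 to D8 shaded. Points are libraries and lines the means of each day; the share of sites at 20% to 80% peaks at D8, where sites above 80% are at 5.04% and 4.37%.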

How the data were processed

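DNA methylation was measured by RRBS, with MspI digestion, bisulfite conversion, 15 PCR cycles and 150-base reads per the labels' protocols. Reads were processed with Bismark 0.23.0 and Bowtie2 on GRCm39, with fastp 0.20.1 and methylKit also named, per the submitters' processing notes. No source used here gives the trimming of filled-in fragment ends or the handling of duplicates. The authors' deposited tables list, per library and CpG strand, the coverage as a read count and the percent of C and of T calls, per the file headers. No listed site had fewer than 10 reads. Coverage times percent gave whole methylated counts, and 0 sites were not whole.

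Sites, tiles and levels were built as the report describes, and a tile's level is its methylated over all reads. The members, tests and classes were chosen with earlier results of these data known. Tiles were tested with edgeR 4.0.16 in R 4.3.3 (glmQLFit and glmQLFTest, common dispersion, an effect per library and a methylation coefficient per day), with Benjamini-Hochberg adjustment over all tiles. As an alternative, a quasi-binomial model with limma's moderated dispersion was fitted. Both were tested on simulated data. Named tiles are the 5 largest called decreases and increases with 100 reads in each of the 4 libraries and no overlap, and the 5 smallest differences among tiles at 80% or more at D4. Since the 4-library fit made no call, the rule was applied to the calls of the 16-library fit, a choice made after seeing that. The plan had kept the fit to the 4 libraries, since replicate spread differed between days in earlier results. The alternatives changed the read minimum, sites, strands, tiles, dispersion and libraries. The strand alternative, the left-out libraries in the 16-library and quasi-binomial fits and the counts without overlap were added after seeing the data. Promoters and gene lists were not analysed here, since the gene table at hand is on another build.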

Additional observations from a re-analysis of the deposited data

How the results depend on the processing

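The mean level, the share of sites at 20% to 80% and the spread within them kept their direction under all alternatives run, though limits of 10% and 90% gave 7.95 points for the share and -4.31 for the spread, limits of 30% and 70% gave -0.652 for the spread, and adding the strands gave 8.90 points for the share. The part lost was 24.7% with 20 reads per site, 23.7% at sites with 10 reads in all 16 libraries, 25.0% with all reads pooled and 25.6% with the level of low tiles subtracted, against 20.9%, and 19.5% to 22.4% with 1 library left out. The D6 to D8 loss at common sites was 20.9% at the sites of the step alone, against 23.7%. The loss at 80% or more at D4 minus that at 40% to 60% was -3.76 points and, with the level of low tiles subtracted, -6.67 points. edgeR's 4-library fit made no call under any other setting except for CpGs whose strands lay within 20 points at D4, with 4645 tiles lower and 122 higher of 42073. Instead of 0 calls, all 16 libraries in 1 fit gave 36399 lower and 373 higher, and the quasi-binomial model 24524 and 726; the cause was not tested. With 1 library left out, the 16-library fit called 19195 to 26326 lower and 251 to 439 higher, and the quasi-binomial model 6 to 11750 lower and 0 to 686 higher. Tiles higher without overlap were 9.49% to 13.0% with 1 library left out, against 5.44%. With the replicate number as a block, edgeR called 0 tiles, with 39569 at an unadjusted p under 0.05 against 44334, the mean difference was -8.80 points and the part lost 20.9%. Replicates of the same number did not deviate together over tiles (r = -0.0188), so the numbers were not taken as pairs. Depth limits single sites, whose counting SD was 9.49 points at D8 and 9.67 points at D6 in the middle class. Promoters were not run.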

Other observations

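Mitochondrial DNA, which was left out of all comparisons, gave a level at the 24 mitochondrial sites listed in the 4 libraries of 15.8% and 15.4% in the D8 libraries and 10.5% and 16.1% in the D6 libraries. These ranges overlapped, and what part of these levels is methylation was not tested.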
